A study of Homo sapiens with 3 samples.

Results

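The messenger RNAs of the BCL2 family, the proteins that set whether the outer mitochondrial membrane is breached when a cell dies by apoptosis, were followed in A549 lung cancer cells kept with cordycepin or cordyceps. The members are 10 genes named by role, 4 that protect the cell (BCL2, BCL2L1, MCL1 and BCL2A1), 2 effectors that open the membrane (BAX and BAK1) and 4 of the BH3-only class (BID, BCL2L11, BBC3 and PMAIP1). They were found by matching the transcript accession of each array probe to these symbols, which gave 16 of the 58191 probes measured and 10 of 22435 named genes. All 16 probes are described here.

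A549 is an established line from a human lung adenocarcinoma. One culture received 0.1% DMSO, one received cordycepin at 60 μg/mL and one received cordyceps at 100 μg/mL, each for 48 h. Cordycepin is 3′-deoxyadenosine, an adenosine analog from the fungus Cordyceps militaris, and the labels do not say what preparation cordyceps was or whether either agent was dissolved in DMSO. According to the labels all cultures shared a medium with zinc sulfate (16.7 μM), troglitazone (10 μM), nicotinamide (10 mM), serum (10%) and antibiotic (1%), and 0.5 μg of RNA was labelled with Cy3 and hybridized to 1 array per condition. No replicate exists, so no difference could be tested, and every ratio is a difference between 1 treated and 1 control array. The agents were given at different doses and are set side by side without a direct comparison. Because each array measured RNA of a whole culture, fewer cells with a transcript and less transcript per cell cannot be told apart.

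BCL2 family proteins act by binding one another. The protective members hold BAX, BAK1 and the BH3-only proteins in inactive pairs, BH3-only proteins are made or activated under stress and release or activate the effectors, and the effectors then form pores through which cytochrome c leaves the mitochondrion. Much of this control lies in protein binding, cleavage and degradation, which an array of RNA does not see, while several BH3-only genes are switched on as transcripts, BCL2L11 by FOXO factors among others.

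The 250 bases before the annotated start of 3 members are shown because the results below turn on these genes: BCL2L11 and BCL2A1 had the members' largest ratios with cordycepin, and BAX is measured by 10 spots per array. The sequences are from RefSeq, build GRCh38.p14, at chr2:111120664-111120913 on the plus strand for BCL2L11, chr15:79971197-79971446 on the minus strand for BCL2A1 and chr19:48954625-48954874 on the plus strand for BAX. Capitals mark matches, on either strand, to the motifs searched.
BCL2L11: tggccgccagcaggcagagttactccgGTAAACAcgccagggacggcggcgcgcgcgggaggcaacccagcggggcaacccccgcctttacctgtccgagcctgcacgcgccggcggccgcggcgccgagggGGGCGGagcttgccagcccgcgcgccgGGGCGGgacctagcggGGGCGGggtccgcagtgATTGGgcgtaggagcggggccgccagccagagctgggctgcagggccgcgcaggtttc
BCL2A1: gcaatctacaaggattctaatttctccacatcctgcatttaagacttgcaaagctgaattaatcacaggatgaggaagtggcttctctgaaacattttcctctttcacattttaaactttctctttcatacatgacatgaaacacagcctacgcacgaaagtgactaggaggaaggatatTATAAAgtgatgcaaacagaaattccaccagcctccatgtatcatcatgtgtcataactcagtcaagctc
BAX: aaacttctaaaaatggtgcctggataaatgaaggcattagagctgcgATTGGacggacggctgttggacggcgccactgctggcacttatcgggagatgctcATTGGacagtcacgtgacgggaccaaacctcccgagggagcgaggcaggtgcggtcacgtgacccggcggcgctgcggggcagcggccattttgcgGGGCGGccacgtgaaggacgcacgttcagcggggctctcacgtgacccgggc
The motifs were the FOXO core GTAAACA, the AP-1 site TGANTCA, the cyclic AMP response element TGACGTCA, the CCAAT box, the GC box GGGCGG, the TATA box TATAAA, and the NF-kB consensus by name. Promoters of 9 members were in the table used, MCL1 being the other member, and the first entry of each gene was read. The BCL2L11 window was rich in G and C (76.8%) and held the FOXO core 223 to 217 bases before the start, the only member window to do so, against 2.98% of 35116 promoters of the same length. It also held 3 GC boxes, present in 42.6% of all promoters, and 1 CCAAT box, present in 32.0%. The BCL2A1 window had a G and C content of 38.8% and held a TATA box 70 to 65 bases before the start, as did 10.7% of promoters. The BAX window held 2 CCAAT boxes and 1 GC box. An AP-1 site lay 113 to 107 bases before the start of BBC3 (6.57% of promoters). The NF-kB consensus, held by 9.96% of promoters, and the cyclic AMP response element, held by 1.65%, were in 0 of the 9 member windows. These are matches of letters, and no binding was measured.

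Levels are given as the background-subtracted signal of a probe in the scanner's units. Ratios are on the log2 scale after each array was set to its 75th percentile of signal, which was 260.1, 224.3 and 260.2 on the control, cordycepin and cordyceps arrays. Detection of a probe required that 50% or more of its spots stood well above background, and a change was called at 2-fold. All 7 epithelial markers of A549 cells were detected on every array, KRT8 and KRT18 among them. With cordycepin 1 of the 7 was called lower (EPCAM, 2.85-fold) and 0 higher, beside 3.57% and 5.95% of all genes. With cordyceps 0 were called, beside 7.35% of all genes. The median log2 ratio of the 7 was -0.515 with cordycepin and -0.512 with cordyceps. Their summed signal was 812832 in the control, 618426 with cordycepin and 557562 with cordyceps. Of 9 markers of blood, endothelial and stromal cells, 4 were detected on the control array (PTPRC, CD14, VWF and COL1A1), and CD3E, MS4A1, PECAM1, COL3A1 and DCN were not well above background on any array. The summed signal of the 9 was 3890 in the control, 1953 with cordycepin and 2568 with cordyceps. Most of it came from CD14 alone, at 3387, 1559 and 2183 units. The sums were not scaled between arrays, and their part in the member values was not tested. On the cordyceps array 1 corner of the slide carried uneven background, with 11.2% of its spots marked by the scanner software as background outliers and 0 on the other arrays. The MCL1 probe, the BBC3 probe and 1 of the 10 spots of BAX lie in that corner.

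Without replicates, the agreement of different probes for the same gene served as a gauge of error. The standard deviation (SD) per probe of the log2 ratio, from pairs of probes in 2607 genes, was 0.39 where the dimmer probe was under 100 units, 0.27 from 100 to 1000 units and 0.15 above for cordycepin, and 0.32, 0.20 and 0.13 in 2403 genes for cordyceps. This SD was derived from the median absolute deviation of the pair differences, so pairs that differ widely add little to it. A multiple of the SD is therefore no measure of how rare a ratio is. The SD includes differences between transcript forms and leaves out any difference between cultures.

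**Figure D1:**
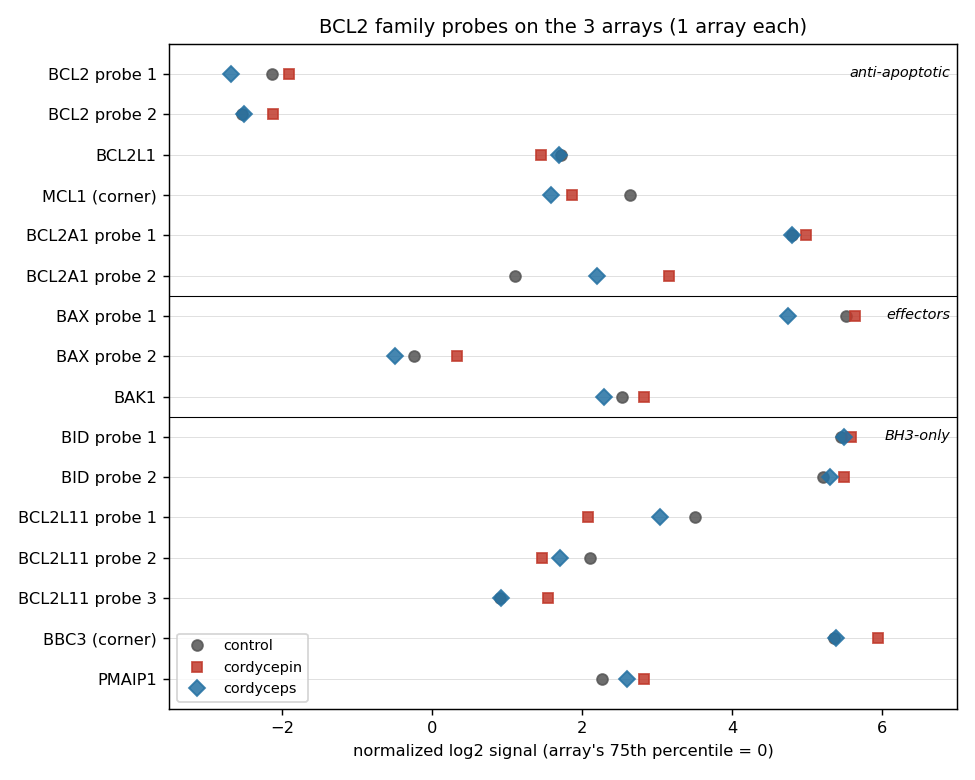
Normalized log2 signal (x axis, array's 75th percentile at 0) of the 16 BCL2 family probes (y axis) on the control (circles), cordycepin (squares) and cordyceps (diamonds) arrays, 1 array each. The markers stand close together for most probes and lie apart for MCL1, BCL2A1 probe 2, BAX probe 1 and BCL2L11 probe 1; levels of different probes are not comparable.

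With cordycepin, 5 of 10 member transcripts lay within 0.28 of the control on the log2 scale by their brightest probe, the single-probe SD over all signals, and BCL2L11 was the one past 2-fold. This gene, which encodes the BH3-only protein BIM, was 2.67-fold lower by its brightest probe, 1.56-fold lower by the second and 1.56-fold higher by probe 3. BCL2A1, an NF-kB-induced protective gene, was 4.13-fold higher by its dimmer probe and 1.13-fold higher by its brighter one. At 2-fold, 0 of 10 members were higher and 1 was lower by the brightest probe, where 5.95% of 15917 genes were called higher and 3.57% lower (9.52% in all). Counted as probes, 1 of 16 was higher and 1 lower, against 7.07% and 3.62% of 30164 probes (10.7% in all). These shares are near the background, so the counts are no result about the family. The median log2 ratio over the 10 members was 0.16, against -0.05 over all genes.

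With cordyceps, MCL1, a short-lived protective protein, was 2.07-fold lower and BAX was 1.70-fold lower by its brightest probe. Again 0 of 10 members were called higher and 1 lower, where 4.19% of 15602 genes were called higher and 3.15% lower (7.35% in all). As probes, 1 of 16 was higher (BCL2A1) and 1 lower (MCL1), against 5.21% and 3.21% of 29259 probes (8.41% in all). Outside the corner, where the MCL1 probe does not lie, 0 of 8 members were called. The background there was 2.67% of genes higher and 3.14% lower (5.81% in all). The median log2 ratio of the members was -0.13, close to -0.11 over all genes.

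**Figure D2:**
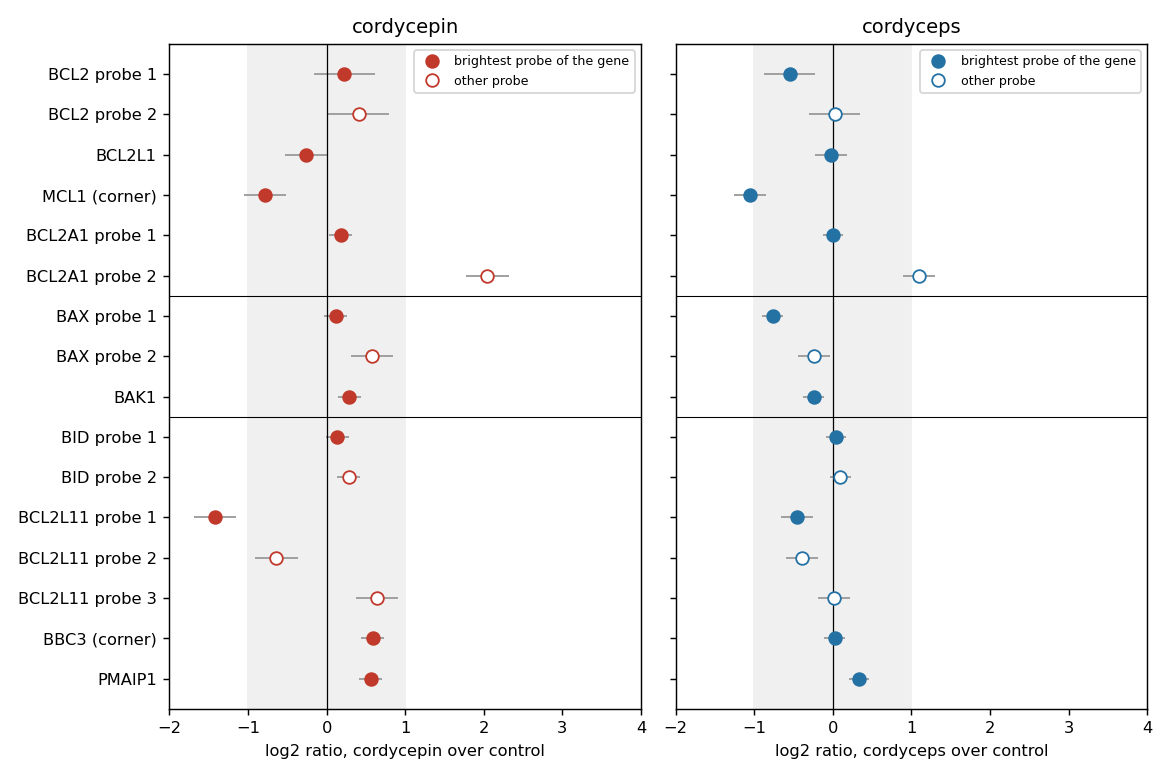
Log2 ratio (x axis) of each BCL2 family probe (y axis) for cordycepin (left) and cordyceps (right) over control, 1 array each. Filled points are the brightest probe of a gene and open points its other probes, bars are 1 SD of a single probe at that signal and the grey band is less than 2-fold; BCL2A1 probe 2 lies right of the band in both panels, BCL2L11 probe 1 lies left of it with cordycepin and MCL1 at its left edge with cordyceps.

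Among the protective genes, BCL2, the founding member, was near the limit of detection. Its first probe gave 59.4 units in the control, 59.8 with cordycepin and 40.6 with cordyceps, where it was not well above background. The log2 ratio was 0.22 with cordycepin, inside the SD of 0.39 for dim probes. The cordyceps ratio was -0.55, moving to -0.28 under median scaling and to -0.23 under normexp background correction. The second probe read 45.0, 51.5 and 45.6 units, for log2 ratios of 0.41 and 0.02. No direction is given for BCL2 at these signals, since the scanner software put the error of the 2 probes at 12.7 to 23.3% of the signal.

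BCL2L1 encodes BCL-XL, which shields the mitochondrion in many epithelial cells. Its probe read 853 units in the control, 615 with cordycepin and 840 with cordyceps. The cordycepin array was the low one, by a log2 ratio of -0.26, which was within the single-probe SD of 0.27, and the ratio with cordyceps was -0.02.

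MCL1 protein is rapidly made and degraded, so that cells depend on continued synthesis of its RNA. The single MCL1 probe read 1622 units in the control, 814 with cordycepin and 783 with cordyceps, and both treated arrays lay below the control. The log2 ratio was -0.78 with cordycepin (1.72-fold lower), 2.89 times the single-probe SD and a ratio that 5.57% of 5710 probes of like signal had or went below, and -1.05 with cordyceps (2.07-fold lower), which passed the 2-fold limit by a margin smaller than the SD of 0.20. The probe lies in the uneven corner of the cordyceps array. Its 155 neighbours there that both arrays detected, within 12 rows and columns, had a median log2 ratio of -0.23. Of the neighbours detected on either array, 2.91% were called higher. In the corner as a whole, probes over 1000 units had a median log2 ratio of -0.17 with cordyceps against -0.15 outside it. MCL1 lay at -0.82 relative to its neighbours, and the corner's part in its value was not tested.

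BCL2A1 encodes BFL-1 (A1), a protective protein induced by inflammatory signals. Its brighter probe gave nearly the same signal on the 3 arrays, 7233, 7065 and 7245 units, with log2 ratios of 0.18 and 0.00. The dimmer probe, designed on the same transcript record, gave 560 units in the control, 1993 with cordycepin and 1197 with cordyceps, for log2 ratios of 2.04 (4.13-fold higher) and 1.09 (2.14-fold higher). Only 0.195% of 5648 probes of like signal had as high a ratio with cordycepin, and 1.63% with cordyceps. The probes of BCL2A1 thus differ from each other by 1.86 with cordycepin, a difference that 0.767% of genes with 2 or more detected probes reached, and by 1.09 with cordyceps, which 2.0% reached. Which probe follows the transcript cannot be told from these files, as no probe sequence is among them. BCL2A1 is also among the apoptosis genes that the study listed as changed on these same arrays, so its higher signal is not independent evidence of a direction.

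**Figure D3:**
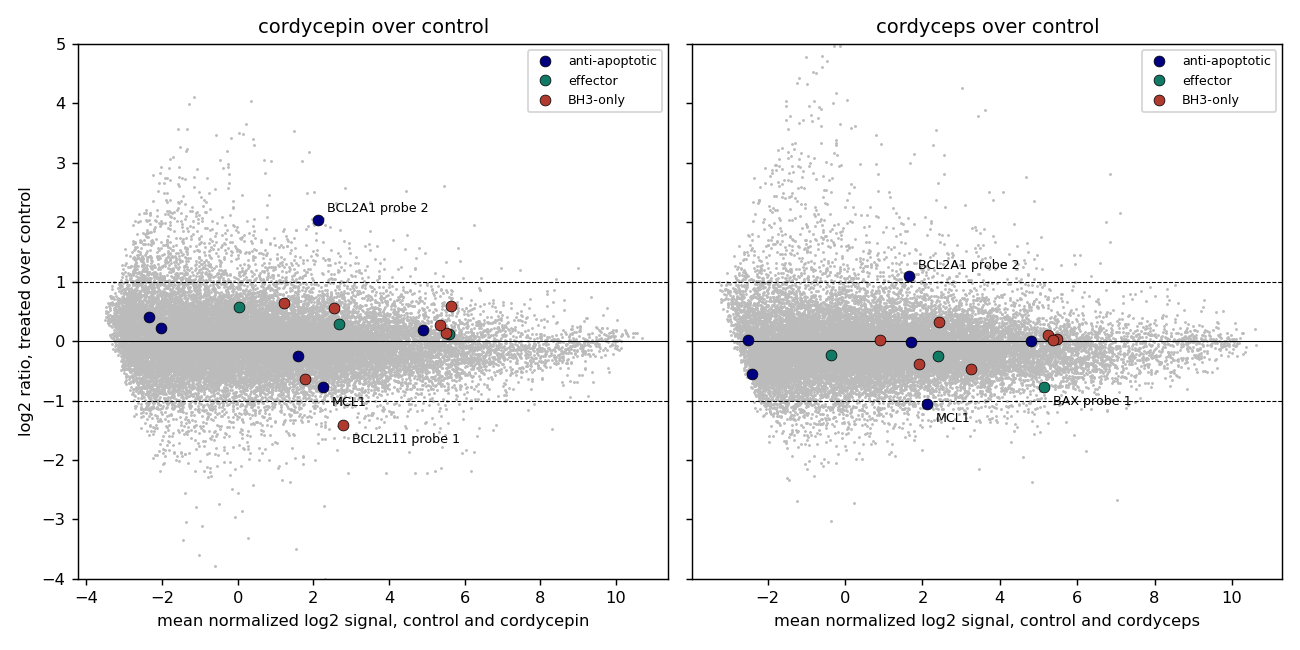
Log2 ratio (y axis) against mean normalized log2 signal (x axis) for probes detected on both arrays (grey), with the BCL2 family probes coloured by role, for cordycepin (left) and cordyceps (right) over control. Dashed lines mark 2-fold; most members lie inside the grey cloud, which widens toward low signals, and the labelled probes have a log2 ratio beyond 0.75 in size.

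The effectors, which both end in pore formation, were not called with either treatment. BAX probe 1 is printed 10 times on each array, which gives the most precise member value within an array. The 10 spots ranged from 11237 to 12386 units in the control (median 11892), from 10779 to 11475 with cordycepin (median 11119) and from 6707 to 7250 with cordyceps (median 7016). All spots of the cordyceps array lay below all spots of the others. The log2 ratio was 0.12 ± 0.04 (SD over 10 spots) with cordycepin, inside the spread between probes of bright genes (0.15), and -0.77 ± 0.05 with cordyceps, 1.70-fold lower and 5.89 times the spread for cordyceps (0.13). Of 1857 probes of like signal, 5.12% had as low a ratio with cordyceps. The BAX spot in the corner gave -0.81, within the range of the others (-0.83 to -0.68). Spots of 1 array share the same RNA and are no replicates of a treatment.

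BAX probe 2, for another transcript form, read 219 units in the control, 281 with cordycepin and 185 with cordyceps. It was highest with cordycepin, by a log2 ratio of 0.57 against a single-probe SD of 0.27, and lowest with cordyceps, by -0.24. The pair of BAX probes therefore had the same sign in each comparison and differed in size, by 0.46 and 0.53. BAK1 read 1507, 1589 and 1273 units, for log2 ratios of 0.29 and -0.24, each about 2 times the SD of bright probes and far below the limit for a call.

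**Figure D4:**
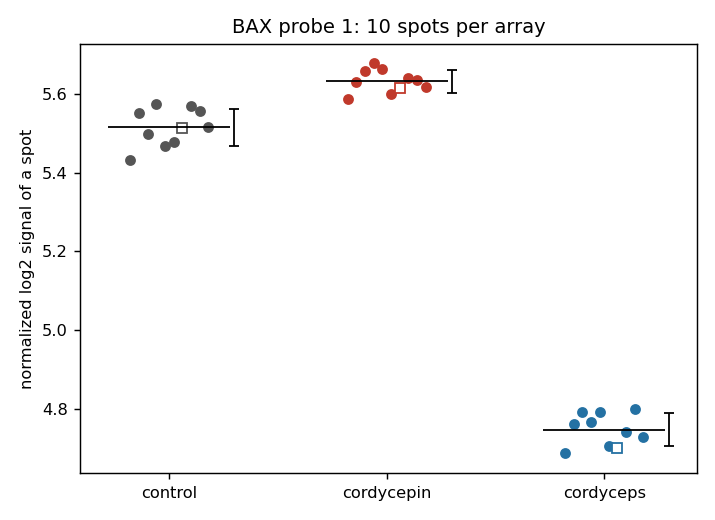
Normalized log2 signal (y axis) of the 10 spots of BAX probe 1 on each array (x axis), with the mean (line) and SD over spots (bar). The open square is the spot in the uneven corner; the cordyceps spots lie at 4.69 to 4.80 and the control spots at 5.43 to 5.57.

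Of the BH3-only genes, BCL2L11 differed most from the control with cordycepin, in opposite directions by different probes. Its brightest probe read 2939 units in the control, 948 with cordycepin and 2134 with cordyceps, so that the cordycepin array was the low one. The log2 ratio with cordycepin was -1.42 (2.67-fold lower), as low as in 0.476% of 4837 probes of like signal, and with cordyceps it was -0.46. A second probe, designed on another transcript form, went the same way, with 1116, 618 and 850 units and log2 ratios of -0.64 and -0.39. Probe 3, assigned to the same record as the second, read 486, 653 and 492 units, for log2 ratios of 0.64 and 0.02, so it was highest on the cordycepin array. With cordycepin the first probe and probe 3 differed by 2.06, which 0.345% of 2607 genes reached. The second probe and probe 3 differed by 1.28, which 3.45% reached, and the first and second by 0.78, which 12.4% reached. These shares come from the 2 brightest detected probes of each gene. They may therefore overstate how rare the differences with probe 3 are. BCL2L11 is spliced into several forms (BIM-EL, BIM-L and BIM-S) that differ in potency, and which of them each probe reads was not tested.

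The other BH3-only genes had no value past the limit. BBC3 encodes PUMA, which binds all the main protective members. Its probe read 10656 units in the control, 13785 with cordycepin and 10833 with cordyceps. The cordycepin array was 1.5-fold higher (log2 ratio 0.59, against an SD of 0.15), as high as in 4.48% of 1650 probes of like signal, and the cordyceps array did not stand apart (0.02). PMAIP1 encodes NOXA, which neutralizes MCL1, and read 1250, 1589 and 1571 units. Both treated arrays were above the control, with log2 ratios of 0.56 (1.48-fold) and 0.33 (1.26-fold). BID, which caspase 8 cleaves to carry death receptor signals to the mitochondrion, had a pair of bright probes that read 11343, 10750 and 11661 units and 9590, 10030 and 10257 units. Their log2 ratios of 0.14 and 0.28 with cordycepin and 0.04 and 0.10 with cordyceps lay within 2 SD of a bright probe.

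By role, the median log2 ratio with cordycepin was -0.04 over the 4 protective genes, 0.20 over the 2 effectors and 0.35 over the 4 BH3-only genes. They were -0.30, -0.06 and 0.08 with median scaling, and 0.18, 0.21 and 0.14 with the corner left out. With cordyceps the medians were -0.29, -0.51 and 0.03. The protective median with cordyceps rests on MCL1 and the dim BCL2 probe, and over the 3 genes outside the corner it was -0.02. The choice of scale moves every ratio of an array together: with median scaling the median over all detected probes went from -0.03 to -0.29 with cordycepin and from -0.12 to 0.15 with cordyceps. The small log2 ratios of BCL2, BCL2A1 (brighter probe), BAX and BID with cordycepin turned negative under that scaling. Those of BCL2L1 and BAK1 with cordyceps turned positive (0.25 and 0.03). In both comparisons MCL1 and BCL2L11 (brightest probe) stayed below 0 and BBC3 and PMAIP1 above 0 under every scaling tried. Other members kept their sign in a single comparison. With cordycepin these were BCL2L1 (below) and BAK1 (above), and with cordyceps BCL2 and BAX (below) and BCL2A1 and BID (above). The cordyceps ratios of BBC3 (0.02), BCL2A1 (0.00) and BID (0.04) lay within the single-probe SD of 0.13 and give no direction. Relative to the median of all detected probes in the same setting, MCL1 lay at -0.76 to -0.70 with cordycepin and -0.93 to -0.88 with cordyceps, BCL2L11 by its brightest probe at -1.44 to -1.32 and -0.34 to -0.30, and BAX at 0.07 to 0.24 and -0.68 to -0.59.

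**Figure D5:**
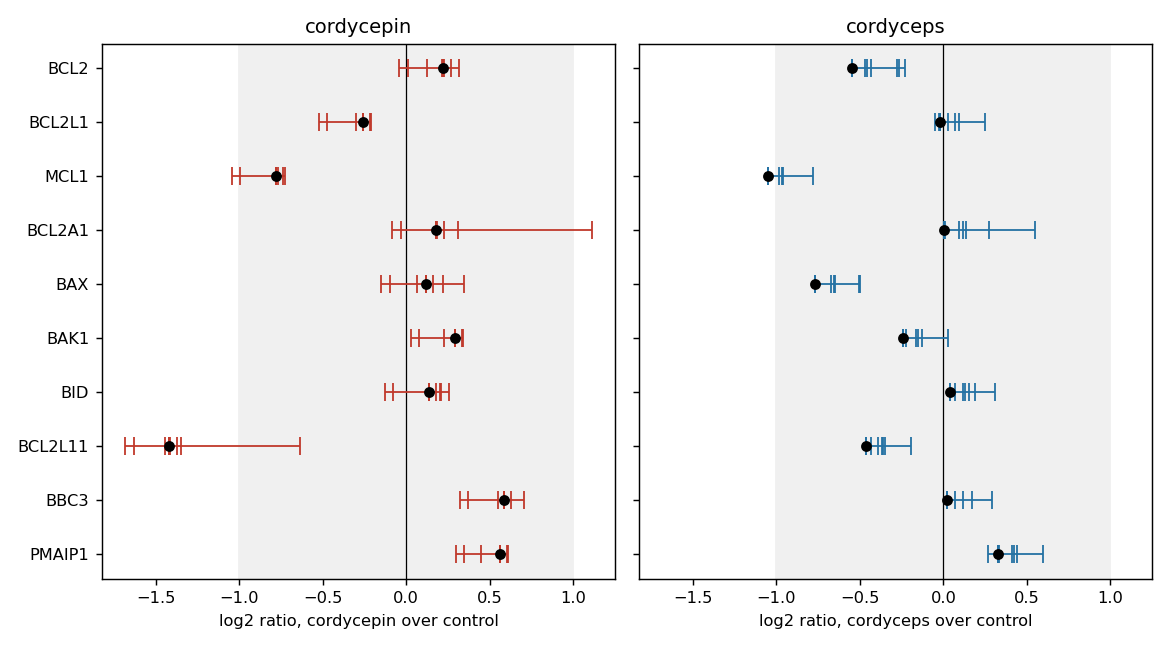
Log2 ratio of each member (x axis, by the brightest probe) under the main setting (black point) and each alternative (ticks, joined by a line), for cordycepin (left) and cordyceps (right) over control. The grey band is less than 2-fold; BCL2A1 and BCL2L11 span the widest ranges with cordycepin, reaching 1.11 and -0.64 where the median of a gene's probes replaced its brightest probe.

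The 14 further BCL2 family genes on the array included 12 that were detected. With cordycepin 2 were called higher and 0 lower, beside 5.95% and 3.57% of all genes, and their median log2 ratio was 0.02. BIK, a BH3-only protein of the endoplasmic reticulum, read 319, 822 and 432 units and was 2.99-fold higher with cordycepin and 1.35-fold higher with cordyceps. HRK, a BH3-only gene best known in neurons, read 228, 485 and 969 units, 2.47-fold higher with cordycepin; its probe lies in the corner, so its cordyceps value (4.26-fold higher) is given with that mark. Outside the corner 0 of 10 were called with cordyceps, beside 5.81% of all genes there, so this count is no result about these genes. The BH3-only gene BMF read 215, 298 and 141 units, for log2 ratios of 0.69 and -0.61, and the log2 ratios of BAD were -0.33 and -0.13.

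Of 15 partner genes in the mitochondrial death pathway, 1 was called with cordycepin, beside 9.52% of all genes. With cordyceps 0 were called, beside 7.35% of all genes. The medians were -0.13 and -0.15. The gene called with cordycepin was APAF1, the scaffold on which cytochrome c activates caspase 9, at 40.3, 74.0 and 21.5 units. Its dim probe was 2.13-fold higher with cordycepin and not well above background on the cordyceps array. Cytochrome c itself (CYCS) had log2 ratios of -0.27 and 0.10, and caspase 9 (CASP9) of 0.21 and -0.10. Of 5 genes that control MCL1 protein turnover, 1 was lower with cordycepin, beside 3.57% of all genes: USP9X, the deubiquitinase that spares MCL1 from degradation, read 816, 234 and 412 units, 3.0-fold lower with cordycepin and 1.98-fold lower with cordyceps, under the limit. The ubiquitin ligases HUWE1 and FBXW7 had log2 ratios of -0.19 and 0.38 with cordycepin and -0.31 and 0.10 with cordyceps.

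Among transcription factors and kinases upstream of the family, 2 of 13 detected genes were called higher with cordycepin and 0 lower, and outside the corner 2 of 11 with cordyceps, with none lower. Of all genes 5.95% were called higher with cordycepin and 2.67% outside the corner with cordyceps. In both comparisons, which share the control array, these were ATF3 and DDIT3, factors of the stress response. DDIT3, which encodes CHOP, read 482, 1038 and 9213 units, 2.50-fold higher with cordycepin and 19.1-fold higher with cordyceps. ATF3 read 517, 1772 and 4542 units, 3.97-fold and 8.78-fold higher. Of the FOXO factors, named above for BCL2L11, FOXO3 had log2 ratios of 0.04 and 0.09 and FOXO1 of 0.26 and 0.07. For cordycepin the study reports less phosphorylated and more nuclear FOXO3a protein, with no significant change in its total in cultured cells. The array does not measure such changes.

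The 6 NF-kB target genes examined included 3 higher with cordycepin, beside 5.95% of all genes, with a median of 1.02: ICAM1 (5.09-fold), TNFAIP3 (2.70-fold) and BIRC3 (2.33-fold). ICAM1 and TNFAIP3 are also among the apoptosis genes that the study listed as changed on these same arrays. The count is thus not independent of that list. With cordyceps 2 of the 5 outside the corner were higher, beside 2.67% of all genes there, TNFAIP3 (2.76-fold) and ICAM1 (2.26-fold), BIRC3 being at 1.30-fold. BCL2A1, an NF-kB target of the family, was 4.13-fold higher with cordycepin by its dimmer probe and 1.13-fold higher by its brighter one.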

How the data were processed

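RNA of A549 cells was hybridized to Agilent 1-colour arrays, 1 per condition. The authors deposited the scanner output, whose intensity values had been background-subtracted and detrended within the array by Feature Extraction 11.5.1.1 (from the file headers) and not scaled between arrays. The study's methods name GeneSpring for normalization and describe Cy3 and Cy5 labelling, while the labels and the deposited files hold the Cy3 channel alone. The intensity values of the deposited value table equal the mean signal per probe within 0.001 on the log2 scale for 99.9% of values. All arrays lie on the same slide.

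Control and outlier spots were left out, spots of a probe were averaged, and log2 signal minus each array's 75th percentile was compared (Python 3.11.15, pandas 2.3.3). A ratio is a bound where the probe was detected on 1 of the arrays compared. Between 24505 and 28494 probes were detected per array, and 0 spots were saturated. Each gene's value is that of its brightest probe over the 3 arrays. Probes were named through RefSeq accessions without versions, which named 31097 of 58201 probes. The array's design uses another build than GRCh38.p14, which served for names and promoters. Alternatives covered scaling, background correction (limma 3.58.1), detection, probe choice, the corner and the threshold. On data simulated for the cordycepin comparison over 58191 probes, 200 of 200 probes changed 4-fold were called. These changes were placed in probes of higher signal alone and lay well past the 2-fold limit. The check therefore does not show how dim probes or ratios near the limit are called. The members and the lists of related genes were chosen with earlier results of these data known. All members are named, and from the lists those called at 2-fold outside the corner (for cordycepin, on the whole array) with up to 4 examples that were not. The cell type markers were not named by this rule. HRK's cordyceps value was added after it was seen. A list of related genes, a further gene and a motif that were also computed are not reported here.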

Additional observations from a re-analysis of the deposited data

How the results depend on the processing

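No paired analysis was possible because each condition has 1 array, and for the same reason no array could be left out. Of 176 member values recomputed under the alternatives, 160 moved by less than the single-probe SD over all signals, 16 moved by more and 0 of the values past 2-fold changed sign. That SD was 0.28 for cordycepin and 0.21 for cordyceps, which is wider than the SD of bright probes. BAX with cordycepin, for example, went from 0.12 to -0.15 with median scaling and counts among the 160. Part of the 160 could hardly move. The deposited value table and the keeping of outlier spots left the member values almost as they were. The 5 members with 1 probe keep their value when the median of a gene's probes is taken. The 160 is therefore no measure of how stable the values are. The values past 2-fold were BCL2L11 with cordycepin and MCL1 with cordyceps, and several smaller ratios did change sign. With cordycepin the count of 1 member past the limit became 2 with median scaling (MCL1 joining BCL2L11), 3 at a 1.5-fold limit, 0 at a 3-fold limit and 2 when probes were counted. Taking the median of a gene's probes left 1, but it was BCL2A1 (higher, 1.11) in place of BCL2L11 (-0.64). With cordyceps the count of 1, which is MCL1, became 0 with median scaling, with the 75th percentile of probes detected on all arrays, with quantile normalization, with normexp background correction, with the corner left out and at 3-fold, and 2 at 1.5-fold (MCL1 and BAX) and when probes were counted. The cordyceps medians with median scaling were -0.016 for the protective genes, -0.24 for the effectors and 0.30 for the BH3-only genes, and the protective median was 0.092 without the corner. Leaving out the corner also moved the 75th percentile of the cordyceps array, which set the median over all detected probes at -0.01 in place of -0.12. Scaling to spike-in controls was not run because 0 of 10 spike-in probes were detected on any array. BCL2 is limited by its dim signal, and its first probe was below detection with cordyceps.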
